A study of Mus musculus with 9 samples.

Results

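The vacuolar ATPase (V-ATPase) is the proton pump that acidifies lysosomes, and cathepsins are proteases that work in that acid. Their genes were taken from the deposited expression table by symbol: every symbol starting with Atp6v0 or Atp6v1, Atp6ap1 and Atp6ap2, every Cts symbol with 1 further letter, and Lamp1, Lamp2, Mcoln1, Tfeb, Tfe3 and Mitf. This gave 50 of the 26214 genes in the table. They are 13 subunits of the V1 sector, 9 of the V0 sector, 2 accessory proteins of the pump, 14 cysteine, 2 aspartic and 2 serine cathepsins, 3 lysosomal membrane proteins and the 3 MiT/TFE transcription factors. The other 2 symbols are Atp6v1fnb, a neighbour of Atp6v1f that is not a subunit, and Atp6v0c-ps2, a pseudogene.

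The study set adipose stromal cells (ASCs) beside fibro-adipogenic progenitors (FAPs), the stromal cells of skeletal muscle, to ask how alike they are before and after muscle injury. All animals were male C57Bl/6 mice (C57Bl/6 J by the study's methods) aged 8 to 12 weeks, and cells were sorted as CD31-, CD45- and Sca-1+. The study's reporting summary gives pooled cells of 3 animals for the triplicates, and whether each library had its own pool is not clear from it. The methods give triplicates for each condition, while the series holds 2 FAP libraries. ASCs came from subcutaneous adipose tissue of mice given NaCl (3 libraries), FAPs from quadriceps muscle given NaCl (2 libraries) and injured FAPs from quadriceps muscle given 80 µL of 50% glycerol (3 libraries), each on day 1. A single library of CD31+CD45+ cells of glycerol-injected muscle on day 1 has no replicate and entered no comparison.

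As background, the V1 sector of the pump hydrolyses ATP in the cytoplasm and drives the V0 sector, which carries protons across the membrane. Cathepsins are made as inactive precursors, mature in the acid of the lysosome and degrade proteins there, and some also degrade collagen and elastin outside the cell, stromal cells being a known source. Tfeb, Tfe3 and Mitf can bind E-box motifs in promoters of lysosomal genes, and mTORC1 signalling controls whether they enter the nucleus.

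The values are reads per gene divided by a size factor for each library, so a value is a normalized signal and not a count. Reads on genes ranged from 24052508 to 27481573 in the 8 compared libraries, and 3 reads were worth a value of 2.29 to 3.95. The totals of the normalized values differed between groups, at 3.62e+07, 3.10e+07 and 3.44e+07 in ASCs, 2.29e+07 and 2.27e+07 in FAPs and 2.12e+07, 2.07e+07 and 2.06e+07 in injured FAPs. The 100 most abundant genes held 40.3% to 43.1% of an ASC library, 35.9% and 36.3% of a FAP library and 24.7% to 26.1% of an injured FAP library, so how the libraries are scaled bears on each difference below.

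The labels were checked against marker genes. All 12 ASC and FAP markers, which include Pdgfra, Ly6a (Sca-1) and Col1a1, were above 3 reads in each of the 8 libraries. Their summed level was 3231340, 2917380 and 3382310 in ASCs, 1601670 and 1737030 in FAPs and 718171, 775335 and 699989 in injured FAPs, with Col1a1 or Col3a1 the most abundant gene, against 64933 in the CD31+CD45+ library. Markers of cells that the sort should remove were also detected, and where their reads come from was not tested. The 13 leukocyte markers summed to 725, 416 and 487 in ASCs, 33.3 and 25.4 in FAPs and 480.2, 2248 and 430.2 in injured FAPs, against 20933 in the CD31+CD45+ library. Srgn was the most abundant of them in ASCs, where Ptprc (CD45) was at 0 in libraries 1 and 3, and Srgn or Lcp1 in injured FAPs. Srgn alone gave 644, 352 and 449 of the ASC sums, so these can hide a difference from injured FAPs. Of the 11 leukocyte markers tested, 10 were called higher and 1 lower in injured FAPs than ASCs, under each of 4 scalings. However, Cd53, Laptm5, Coro1a, Tyrobp, Cd52, Spi1 and Rac2 had a mean of at least 10, needed for testing, only through the injured libraries. Their calls are therefore not independent of that choice. By the sums, injured FAP library 2 stands apart from the others of its group, and both FAP libraries have 12 of the 13 leukocyte markers at 0, Ptprc included, with Lcp1 the only one above 0.

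Those zeros in the FAP libraries were examined because they reach into the cathepsins. Among 319 genes that were at 500 or more in the CD31+CD45+ library and there at least 30 times the mean of the ASC and injured FAP libraries, the FAP libraries had 82 and 78 at exactly 0 and 18 and 18 at 1 to 10 reads. The ASC libraries had 26, 32 and 25 of the same genes at 0 and 121, 145 and 144 at 1 to 10 reads. Injured FAP libraries had 6, 6 and 8 at 0 and 66, 54 and 74 at 1 to 10 reads. FAP values did not enter the choice of these genes while ASC and injured FAP values did, so the counts are not like for like between groups. Within each FAP library more of these genes were at 0 than at 1 to 10 reads, so low reads may be missing there. The cause was not tested, and a gene listed at 0 in FAPs is given no fold against them.

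Of the 50 genes, 37 had a mean of at least 10 over the 8 libraries and were tested. The 13 that were not tested include 7 at 0 in all 8 libraries: Atp6v1c2, Atp6v1g3, the rodent placental cathepsin genes Ctsj, Ctsm, Ctsq and Ctsr, and Atp6v0c-ps2. The other 6, Atp6v1b1, Atp6v1e2, Atp6v1fnb, Ctse, Ctsg and Ctsw, reached at most 10.5 in any of the 8 libraries. Tested genes with a mean under 100 are Ctss, Atp6v0a4, Atp6v1g2, Atp6v0c and Atp6v0d2, and these 5 are described by their values without a fold. A gene is called higher or lower below when limma on log2(value + 1) gave an adjusted p under 0.05 over all 13601 genes tested and a log2 fold change beyond 0.58.

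**Figure D1:**
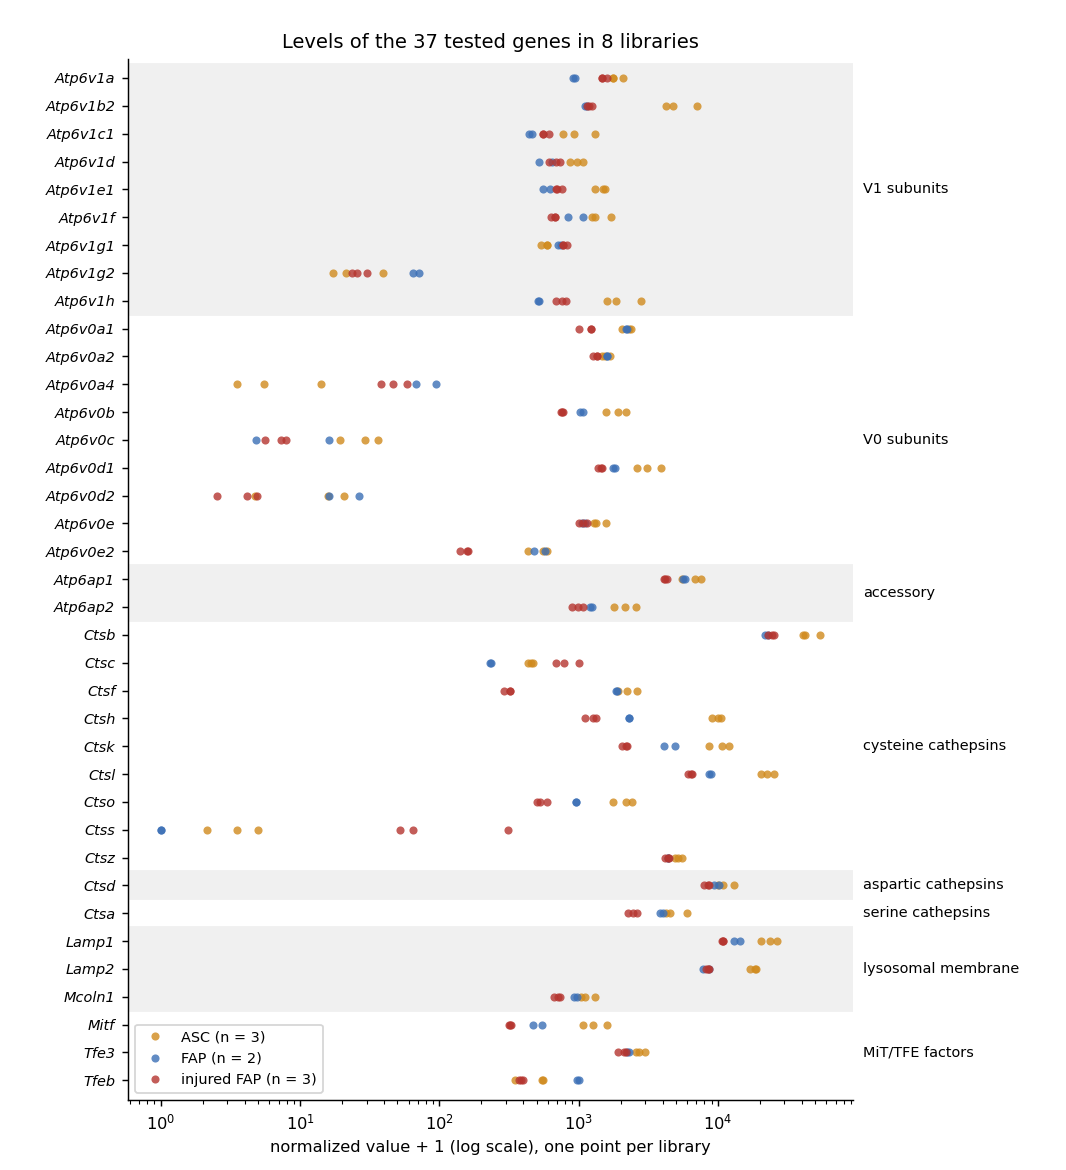
Normalized value + 1 on a log axis for the 37 tested genes, grouped by role, with 1 point per library for ASCs (n = 3), FAPs (n = 2) and injured FAPs (n = 3). The ASC points of Atp6v1b2, Ctsh, Ctsl, Lamp2 and Mitf lie to the right of both muscle groups, while Ctss is at 0 in both FAP libraries.

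In ASCs against FAPs, more of these genes were higher in ASCs than lower. Of the 37 tested, 19 were called higher and 3 lower, where 23.4% and 23.8% of all 13601 genes tested were called higher and lower, 47.2% together. The median log2 fold change was 0.77, against 0.00 over all genes tested. In bulk RNA of sorted cells, fewer cells with a transcript and less RNA of it per cell cannot be told apart. Atp6v0c is 1 of the 19, though it passed the filter on low values only through the ASC libraries, and Ctss is not called here. Without these 2 genes the counts were 18 and 3. The 6 genes called higher under each of 4 scalings were Atp6v1b2, Atp6v1h, Atp6v1e1, Ctsh, Ctsl and Mitf, and of the lower ones Tfeb and Atp6v0a4 were. The counts depend on the scaling. With quantile normalization they were 12 and 2, and with a common total for every library, chosen after seeing the data, they were 7 and 5, so that 58.3% of the called genes were higher where 86.4% were with the deposited values. The common total moved the median of all genes to -0.56 and that of the tested V-ATPase, cathepsin and related genes to 0.20, which is 0.76 above it, beside 0.77 above with the deposited values. A common 75th percentile moved the medians to -0.20 and 0.56. A single factor per library shifts all genes about alike, so under these scalings the distance is nearly fixed and shows no stability. Quantile normalization, which can change the distance, moved the second median to 0.36 while that of all genes was -0.01, a distance of 0.37.

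Injury was examined by setting injured FAPs against FAPs, where Ctsc and Atp6v1a were higher after injury and several cathepsins and V0 subunits lower. The counts were 3 higher and 11 lower, where 24.9% and 27.7% of all genes tested were called higher and lower (52.6% together), so the share of lower calls is near the background. The median was -0.34, against -0.05 over all genes tested. All 3 higher genes (Ctss, Ctsc and Atp6v1a) and 8 of the 11 lower ones (Ctsf, Ctsh, Ctsk, Ctso, Atp6v0a1, Atp6v0e2, Atp6v0d2 and Tfeb) were called under each of the 4 scalings. Ctss passed the filter on low values only through the injured libraries, and without it the counts were 2 and 11. With quantile normalization Atp6v0b, Atp6v1f, Atp6ap1 and Ctsl were also called lower, Atp6v1f with a common 75th percentile too.

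Most of the tested genes were lower in injured FAPs than in ASCs. Here tissue and injury differ together and cannot be told apart, and all 3 comparisons share libraries. The counts were 3 higher and 24 lower, where 25.0% and 25.8% of all genes tested were called higher and lower (50.8% together), and the median was -0.99, against 0.02. Under the common total 5 were higher and 11 lower, with a median of -0.30 where that of all genes was 0.71, and 31.2% of called genes were higher where 11.1% were with the deposited values. Under each of the 4 scalings, 11 of the 24 were called lower: Ctsf, Ctsh, Ctsk, Ctsl, Ctso, Atp6v1b2, Atp6v1h, Atp6v0b, Atp6v0c, Atp6v0e2 and Mitf. The 3 higher ones, Ctsc, Ctss and Atp6v0a4, also were. Atp6v0c passed the filter on low values only through the ASC libraries and Ctss only through the injured ones, so neither call is independent of that choice, and without both genes the counts were 2 and 23.

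**Figure D2:**
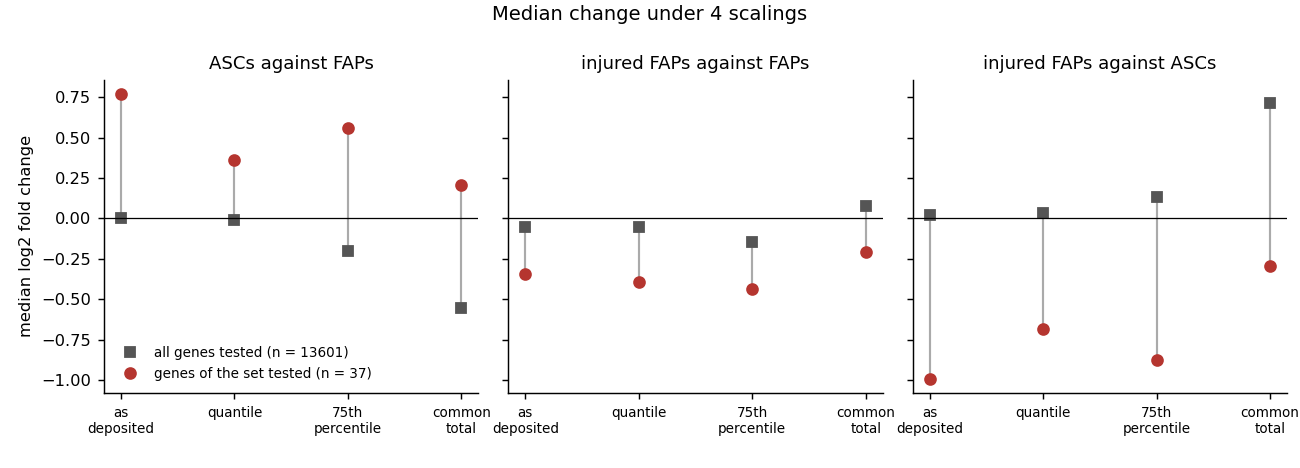
Median log2 fold change of all genes tested (squares, n = 13601) and of the 37 tested V-ATPase, cathepsin and related genes (circles) under the deposited scaling, quantile normalization, a common 75th percentile and a common total. The circles keep their side of 0 in each comparison under each scaling and lie 0.77, -0.29 and -1.01 from the squares with the deposited values.

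Abundant genes as a whole leaned the same way in both comparisons with ASCs, though not after injury. Among the 4203 genes tested with a mean of at least 1000, a band chosen after seeing the data, 36.5% were called higher and 9.95% lower in ASCs against FAPs, with a median of 0.34. The 23 V-ATPase, cathepsin and related genes in that band had 13 higher and 0 lower calls and a median of 0.81. After injury 29.1% of the abundant genes were higher and 20.5% lower (median 0.14), while 1 of the 23 was higher and 6 lower (median -0.33). Between injured FAPs and ASCs 33.02% of the abundant genes were lower and 15.2% higher with a median of -0.18, and of the 23 genes 17 were lower and 0 higher with a median of -1.09. As a share of the library, which no single factor per library changes, the summed V-ATPase subunits and accessory proteins made up 0.112%, 0.0946% and 0.0979% in ASCs, 0.0941% and 0.0918% in FAPs and 0.0854%, 0.0858% and 0.0883% in injured FAPs. The summed cathepsins made up 0.363%, 0.329% and 0.323%, then 0.258% and 0.258%, then 0.244%, 0.253% and 0.235%. For the pump the groups lie close together by this measure without overlapping, and for the cathepsins the ASC libraries stand above both muscle groups. The order of ASCs and FAPs in the pump shares leans on 1 gene, Atp6v1b2. It gave 7107, 4259.7 and 4770.4 of summed values of 40386, 29298 and 33687 in ASCs. In FAPs it gave 1101 and 1137 of 21515 and 20880. The shares therefore do not show that the other subunits follow this order.

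**Figure D3:**
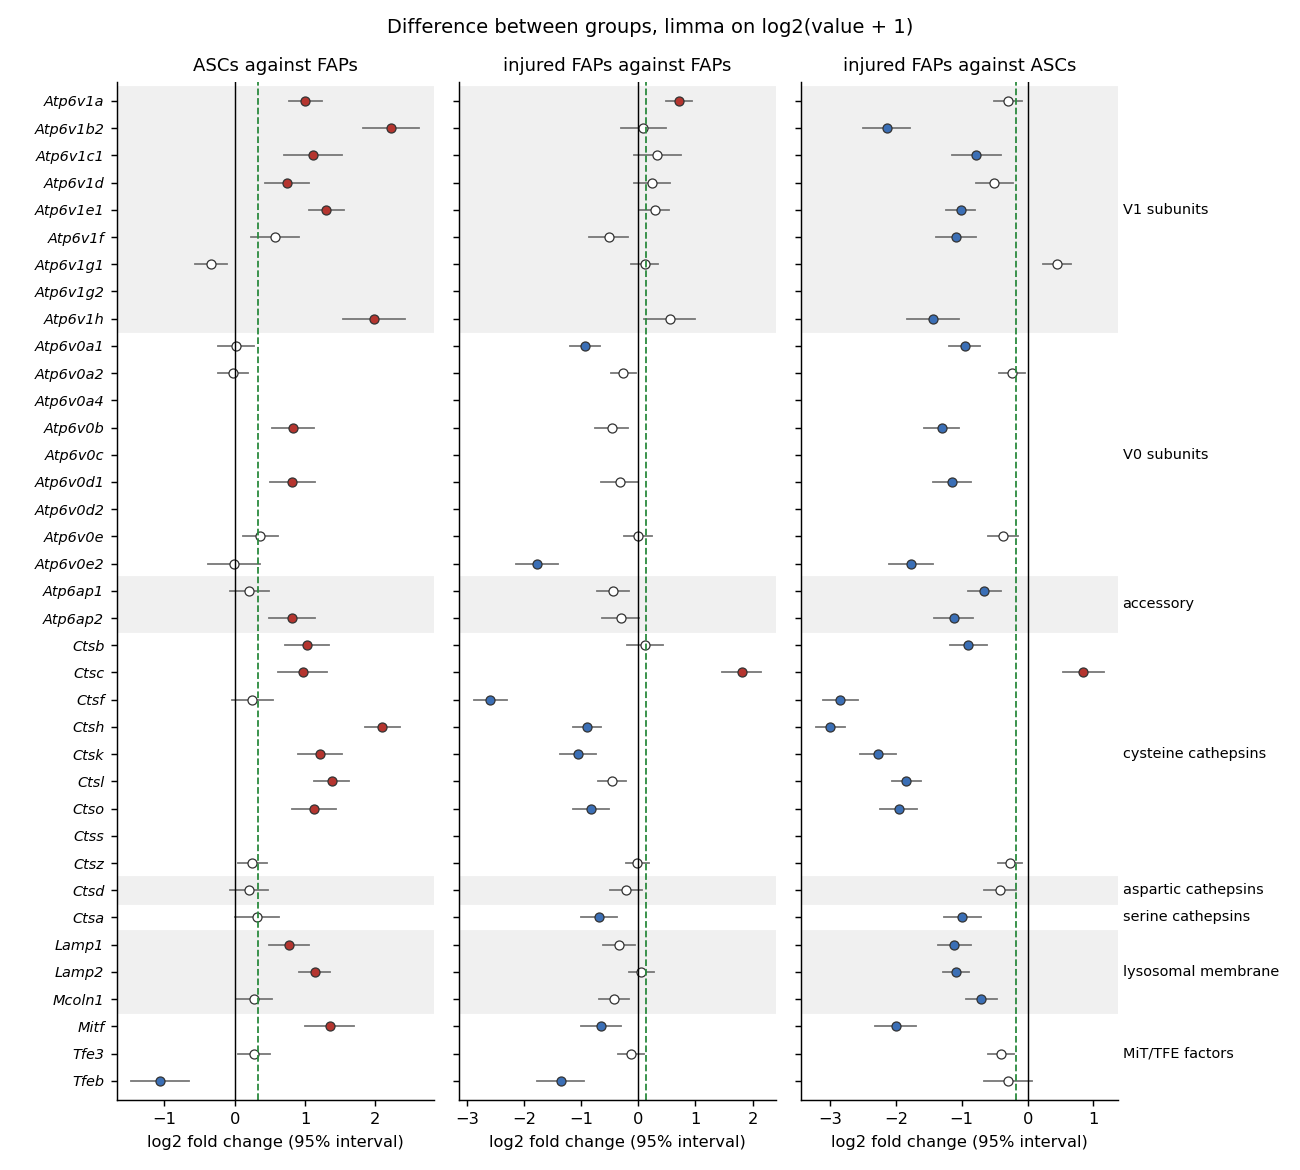
Log2 fold change (points) with its 95% interval (lines) in each comparison for the 32 tested genes with a mean of at least 100, by role, with filled points for called genes (red higher, blue lower), open points for genes not called and a dashed line for the median of all genes tested with a mean of at least 1000. Atp6v1b2 and Ctsh lie farthest to the right in ASCs against FAPs, Ctsf farthest to the left in injured FAPs against FAPs, and these 3 kept their direction and call under each scaling.

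Promoter sequences of these genes were searched for the E-box that MiT/TFE factors can bind. RefSeq promoters (build GRCm38.p6) were matched for 39 of the 50 genes by symbol. The motif CACGTG, which reads the same on both strands, occurred within 250 bases before the start in 8 of them: Atp6v0b, Atp6v1a, Ctsa, Ctsd, Ctsf, Ctsl, Lamp1 and Mcoln1. Of all 27025 genes with a promoter 6.86% hold it in a window of that length. The longer TCACGTGA, also palindromic and containing CACGTG, occurred in 4 of them (Atp6v1a, Ctsa, Ctsd and Mcoln1) and in 0.907% of all genes with a promoter. Shown are 4 genes from different roles whose motif lies outside annotated exons: a V0 subunit, a V1 subunit and a membrane protein called higher in ASCs than FAPs, and the cathepsin that fell furthest after injury. Each is printed 5′ to 3′ on its gene's strand, with bases in GENCODE exons trimmed off, and capitals mark CACGTG or TCACGTGA.
Atp6v0b, chr4:117887334-117887579, minus strand: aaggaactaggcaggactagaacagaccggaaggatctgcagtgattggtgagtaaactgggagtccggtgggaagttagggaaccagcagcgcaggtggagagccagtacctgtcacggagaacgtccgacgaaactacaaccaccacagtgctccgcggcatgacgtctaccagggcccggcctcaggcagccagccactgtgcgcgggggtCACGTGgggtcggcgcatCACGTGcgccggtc
Atp6v1a, chr16:44139306-44139461, minus strand: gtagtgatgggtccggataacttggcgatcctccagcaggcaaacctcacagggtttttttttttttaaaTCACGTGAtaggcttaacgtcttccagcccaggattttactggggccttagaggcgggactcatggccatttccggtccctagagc
Lamp1, chr8:13158911-13159160, plus strand: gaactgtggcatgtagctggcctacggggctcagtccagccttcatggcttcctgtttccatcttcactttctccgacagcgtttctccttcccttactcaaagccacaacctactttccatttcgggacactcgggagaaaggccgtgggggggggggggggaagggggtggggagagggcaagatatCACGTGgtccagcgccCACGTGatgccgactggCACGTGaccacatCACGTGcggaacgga
Ctsf, chr19:4854915-4855129, plus strand: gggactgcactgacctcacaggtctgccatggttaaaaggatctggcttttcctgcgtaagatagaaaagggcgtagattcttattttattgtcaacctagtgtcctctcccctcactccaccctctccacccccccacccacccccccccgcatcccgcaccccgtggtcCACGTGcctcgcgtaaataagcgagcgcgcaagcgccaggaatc
The Lamp1 stretch holds 4 copies of CACGTG, that of Atp6v0b 2, those of Ctsf and Atp6v1a 1 each, and the Atp6v1a copy is the longer motif. The Atp6v1a stretch lies inside the GENCODE gene span, in an intron of a longer transcript, and the other 3 lie upstream of the annotated gene. Of the 8 tested genes with the motif, 4 were called higher in ASCs than FAPs and 0 lower, and of the 21 with a promoter but no motif 10 were higher and 3 lower. Over all genes tested with a promoter, 24.7% of the 1048 with the motif and 22.6% of the 9703 without it were higher. A match is a stretch of letters, and binding was not measured.

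In the catalytic V1 sector, 6 of 9 tested subunits were called higher and 1 lower in ASCs than FAPs, with a median log2 fold change of 1.01, where 23.4% and 23.8% of all genes tested were called. Under the common total 3 were higher and 2 lower, and the median was 0.44. Atp6v1b2, the non-catalytic B subunit found in most tissues, had values of 7107, 4259.7 and 4770.4 in ASCs, 1101 and 1137 in FAPs and 1184, 1144 and 1246 in injured FAPs. Every ASC library lay above every muscle library, and FAPs and injured FAPs lay close together. The difference between ASCs and FAPs (log2 fold change 2.23, 95% interval 1.83 to 2.63, limma adjusted p = 3.9e-06) and that between injured FAPs and ASCs (log2 fold change -2.14, 95% interval -2.50 to -1.78, limma adjusted p = 1.4e-06) were both called under each scaling. Atp6v1h, a regulatory subunit, was at 2811, 1600.4 and 1842 in ASCs, 516 and 509.9 in FAPs and 759, 691 and 806 in injured FAPs. The 3 groups did not overlap, with ASCs highest and FAPs lowest. It was higher in ASCs than FAPs (log2 fold change 1.98, 95% interval 1.54 to 2.42, limma adjusted p = 1.7e-05) and lower in injured FAPs than ASCs (log2 fold change -1.43, 95% interval -1.83 to -1.03, limma adjusted p = 5.0e-05), and its log2 fold change in injured FAPs against FAPs, 0.55, was under the threshold but reached 0.68 and was called with a common total.

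Atp6v1a encodes the catalytic A subunit, and it is the V1 gene called higher after injury. Its values were 914 and 933 in FAPs, 1475, 1462 and 1608 in injured FAPs and 2064, 1773 and 1751 in ASCs. Each injured library lay above both FAP libraries, and each ASC library above the injured ones. The difference between injured FAPs and ASCs was not called, and its log2 fold change turned from -0.30 to 0.40 with a common total. The rise after injury (log2 fold change 0.71, 95% interval 0.48 to 0.95, limma adjusted p = 1.9e-04) held under each scaling. Against FAPs it was also higher in ASCs (log2 fold change 1.01, 95% interval 0.77 to 1.24, limma adjusted p = 2.2e-05), a call that was lost with a common total, where the log2 fold change was 0.44. Because A and B subunits stand in equal number in the pump, their transcripts were set side by side per length of annotated exon. The ratio of Atp6v1b2 to Atp6v1a was 5.18, 3.61 and 4.10 in ASCs, 1.81 and 1.83 in FAPs and 1.21, 1.18 and 1.17 in injured FAPs. The 3 groups did not overlap in this ratio, which no single factor per library changes.

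The other V1 subunits did not share one direction. Atp6v1e1, part of a peripheral stalk that joins the sectors, was at 1549, 1317 and 1493 in ASCs, 619 and 555 in FAPs and 685, 704 and 760.4 in injured FAPs. ASCs were again apart from both muscle groups, and the difference from FAPs (log2 fold change 1.30, 95% interval 1.05 to 1.56, limma adjusted p = 6.3e-06) was called under each scaling. Atp6v1c1 (log2 fold change 1.11) and Atp6v1d (0.74), which lie between the stalks and in the rotor, were also called higher in ASCs than FAPs, and both calls were lost with a common total, where the values were 0.55 and 0.17. The Atp6v1d call was also lost with a common 75th percentile (0.53) and without FAP library 2 (0.57). Compared with ASCs, injured FAPs had lower values of Atp6v1e1 (-1.02), Atp6v1f (-1.09) and Atp6v1c1 (-0.78), on the log2 scale, and with a common total they were at -0.32, -0.39 and -0.08 and not called. Without ASC library 1 the Atp6v1c1 value was -0.57 and under the fold threshold. Atp6v1g1, a stalk subunit, was not called in any comparison with the deposited values, at 590.2, 596 and 539.8 in ASCs, 749 and 705 in FAPs and 767, 769 and 818 in injured FAPs. ASCs were lowest here and no groups overlapped, and a common total made it lower in ASCs than FAPs (-0.90) and higher in injured FAPs than ASCs (1.15). Atp6v1g2, the G subunit typical of neurons, was called lower in ASCs and in injured FAPs than in FAPs at values of 38.2, 20.4 and 16.3, 29.0, 22.5 and 24.4 and 70.4 and 64.0 in that order, and was at 137 in the CD31+CD45+ library. FAPs lay above both other groups, which overlapped each other, both calls were lost with quantile normalization, and a common total made it higher in injured FAPs than ASCs.

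V0, the membrane sector, did not share one direction between ASCs and FAPs. Of 9 tested subunits, 3 were called higher and 1 lower in ASCs, with a median of 0.02 that was -0.54 with a common total, where 0 were higher and 2 lower. Without Atp6v0c, which passed the filter on low values only through the ASC libraries, the counts were 2 and 1 and the median 0.01, and all genes tested had 23.4% higher and 23.8% lower. Atp6v0d1, which couples the rotor to the proton-carrying ring, was at 3881, 2614 and 3116 in ASCs, 1771 and 1819 in FAPs and 1436, 1476 and 1385 in injured FAPs. Atp6v0b, a ring subunit, was at 2180.2, 1559.6 and 1926 in ASCs, 1076 and 1025 in FAPs and 757, 745 and 773 in injured FAPs. For both genes the 3 groups kept the order ASCs, FAPs, injured FAPs without overlap. Their differences between ASCs and FAPs, 0.82 and 0.83 on the log2 scale, were lost with quantile normalization (0.45 and 0.57) and with a common total (0.25 and 0.26). Both were lower in injured FAPs than ASCs, Atp6v0b under each scaling (log2 fold change -1.30, 95% interval -1.57 to -1.04, limma adjusted p = 5.6e-06) and Atp6v0d1 at -1.14, which a common total brought to -0.44 and under the threshold.

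After injury 3 of the 9 V0 subunits were called lower and 0 higher, with a median of -0.47. That is 33.3% lower, near the 27.7% of all genes tested, and these 3 calls held under each scaling. Atp6v0a1, an isoform of the a subunit through which protons pass, was at 2169.9 and 2232 in FAPs, 1232, 1224 and 1012 in injured FAPs and 2288, 2057 and 2373 in ASCs. ASCs and FAPs overlapped, and the injured libraries lay below both (log2 fold change -0.93, 95% interval -1.19 to -0.68, limma adjusted p = 5.6e-05 against FAPs). Against ASCs the log2 fold change was -0.96, and -0.26 and not called with a common total. Atp6v0e2, a small membrane subunit, was at 573 and 479 in FAPs, 140.4, 156 and 160.2 in injured FAPs and 594, 430.4 and 551 in ASCs. Again only the injured libraries stood apart, against FAPs (log2 fold change -1.78, 95% interval -2.15 to -1.41, limma adjusted p = 8.3e-06) and against ASCs (log2 fold change -1.77, 95% interval -2.10 to -1.44, limma adjusted p = 2.9e-06). Its paralog Atp6v0e was not called in any comparison, at 1052 and 1104 in FAPs and 1146, 1011 and 1067 in injured FAPs, groups that overlapped. Nor was Atp6v0a2 called, whose values ran from 1265 to 1690 over the 8 libraries, except with a common total, which made it lower in ASCs than FAPs (-0.59).

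Subunit isoforms with restricted expression were low. Atp6v0a4, known from kidney and inner ear, was at 13.2, 4.53 and 2.51 in ASCs, 93.2 and 66.8 in FAPs and 45.5, 37.2 and 58.0 in injured FAPs. Both muscle groups lay above ASCs and were called so under each scaling. Atp6v0d2, known from osteoclasts and macrophages, was at 19.8, 14.7 and 3.77 in ASCs, 25.7 and 15.1 in FAPs and 3.14, 3.87 and 1.53 in injured FAPs. It was called lower in injured FAPs than in both other groups, though ASC library 3 lay within the injured range and the call against ASCs was lost with a common total. For Atp6v0c, the main ring subunit, the values were 18.4, 28.3 and 35.2 in ASCs, 3.80 and 15.1 in FAPs and 6.28, 6.97 and 4.58 in injured FAPs. It was called higher in ASCs than in both muscle groups, against FAPs not with a common total, but it passed the filter on low values only through the ASC libraries, so these calls carry little weight. These values are uncertain, because its transcript is 99.7% identical to the pseudogene Atp6v0c-ps2 over 387 bases and the treatment of reads with several matches is not given. Whether such reads are missing from its value was not tested. Atp6v1g1, Atp6ap2 and Atp6v1f also have near-identical copies, at 99.4%, 98.4% and 98.5% identity over 357, 438 and 202 bases, so their levels are uncertain too. Ctsl has one over 158 bases at 96.2% identity, and Mcoln1 matches 18 short genes over 98 bases at 95.9%. Exons shared with genes on the opposite strand cover 662 bases of Atp6v0a2, 70 of Atp6v0b, 127 of Atp6v1h, 144 of Atp6v1g2 and 177 of Lamp1, and Atp6v0a4 shares 259 with a gene on its own strand.

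Of the accessory proteins, Atp6ap2 (the prorenin receptor) was at 2583, 1782 and 2162 in ASCs, 1212 and 1237 in FAPs and 902, 995 and 1069 in injured FAPs. No groups overlapped, and ASCs were highest. The difference from FAPs was called (log2 fold change 0.81, 95% interval 0.48 to 1.14, limma adjusted p = 8.7e-04) but fell under the fold threshold with quantile normalization (0.54) and a common total (0.24). Atp6ap1, which assists assembly of the pump, was at 7527, 5515 and 6869 in ASCs, 5783 and 5599.6 in FAPs and 4311, 4066 and 4133 in injured FAPs. ASCs and FAPs overlapped, and injured FAPs lay below both. Both proteins were called lower in injured FAPs than ASCs, at -1.12 and -0.66 on the log2 scale. With a common total these became -0.43 and 0.04, the latter on the other side of 0. Atp6ap1 was also under the threshold with quantile normalization (-0.26), a common 75th percentile (-0.54) and without ASC library 1 (-0.56).

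Among the cathepsins, 11 of 18 were tested. In ASCs against FAPs 6 were called higher and 0 lower, but 4 and 0 with quantile normalization and 3 and 0 with a common total (median 1.02, and 0.46 with a common total). After injury 2 were higher and 5 lower, and 2 and 4 with a common total (median -0.46, and -0.33). Between injured FAPs and ASCs 2 were higher and 7 lower, and 2 and 5 with a common total (median -0.99, and -0.30). Of the 2 higher cathepsins in each of these, Ctss passed the filter on low values only through the injured libraries, and without it 1 was higher and 5 lower after injury and 1 higher and 7 lower than in ASCs. The medians without Ctss were 0.99 in ASCs against FAPs, -0.57 after injury and -1.42 between injured FAPs and ASCs. With a common total they were 0.43, -0.44 and -0.72. As shares of the 11, the calls higher and lower were 54.5% and 0% in ASCs against FAPs, 18.2% and 45.5% after injury and 18.2% and 63.6% between injured FAPs and ASCs, beside 23.4% and 23.8%, 24.9% and 27.7%, and 25.0% and 25.8% of all genes tested. Per 1000 bases of annotated exon, the highest mean levels in ASCs were those of Ctsb at 9600.3, Ctsk at 6928, Ctsh at 6097 and Ctsd at 5294. In injured FAPs Ctsb at 5095, Ctsd at 3940.5 and Ctsz at 3006 came first, while Ctsk was at 1424 and Ctsh at 764. Both orders depend on the length used, which joins the exons of all annotated transcripts of a gene. That length is 6168 bases for Ctsl, 1512 for Ctsk and 1617 for Ctsh. Without division by length, Ctsl came next after Ctsb in ASCs, with a mean of 22756. In injured FAPs its mean was 6327, behind Ctsb and Ctsd. Ctsb alone made up 41.0%, 39.8% and 37.9% of the summed cathepsin values in ASCs, 38.5% and 37.1% in FAPs and 47.2%, 48.3% and 47.0% in injured FAPs. Its share was higher in each injured library than in any other.

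Ctsb, a lysosomal endopeptidase that also trims peptides from their end, was at 53935, 40598 and 42069 in ASCs, 22706 and 21745 in FAPs and 24404, 25274 and 22819.7 in injured FAPs. ASCs lay far above both muscle groups, which lay side by side. Against FAPs the ASC level was higher (log2 fold change 1.02, limma adjusted p = 1.5e-04), but this call was lost with quantile normalization (0.21) and with a common total (0.46). The lower level in injured FAPs than ASCs, -0.90 on the log2 scale, was lost in the same way (-0.05 and -0.20). Exons of Ctsb share 774 bases with Fdft1 on the opposite strand, and the strand setting of the counting is not given. Ctsl, an endopeptidase of the same family, was at 25479, 20345 and 22444 in ASCs, 8588 and 8848 in FAPs and 6410.3, 6474 and 6097 in injured FAPs. The 3 groups were ordered without overlap. It was higher in ASCs than FAPs (log2 fold change 1.38, 95% interval 1.13 to 1.63, limma adjusted p = 4.1e-06) and lower in injured FAPs than ASCs (log2 fold change -1.84, 95% interval -2.06 to -1.62, limma adjusted p = 1.7e-07), both under each scaling. Its exons share 1742 bases with the antisense gene Gm47123 and 395 with the pseudogene Gm49230 on the same strand.

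Ctsk and Ctsh fell after injury and were highest in ASCs. Ctsk, the main collagen-degrading cathepsin of osteoclasts and fibroblasts, was at 12076, 8696 and 10654 in ASCs, 4066 and 4899.6 in FAPs and 2201, 2049.8 and 2207 in injured FAPs. Each group was apart from the next. It was higher in ASCs than FAPs (log2 fold change 1.22, 95% interval 0.90 to 1.53, limma adjusted p = 4.4e-05), with 0.57 under quantile normalization, just under the threshold, and lower in injured FAPs than FAPs (log2 fold change -1.05, 95% interval -1.37 to -0.74, limma adjusted p = 9.6e-05). Ctsh, an aminopeptidase, was at 9964, 9013 and 10599 in ASCs, 2283 and 2303 in FAPs and 1262, 1339 and 1104 in injured FAPs. With the deposited values it showed the largest difference between injured FAPs and ASCs of the 32 tested V-ATPase, cathepsin and related genes with a mean of at least 100 (log2 fold change -3.00, 95% interval -3.22 to -2.78, limma adjusted p = 1.1e-08), and Ctsk followed at -2.27 behind Ctsf, while with quantile normalization Ctsf (-2.77) came before Ctsh (-2.61), and Mitf and Atp6v1b2 before Ctsk. Against FAPs, Ctsh was higher in ASCs (log2 fold change 2.10, 95% interval 1.85 to 2.35, limma adjusted p = 2.7e-07) and lower in injured FAPs (log2 fold change -0.90, 95% interval -1.14 to -0.65, limma adjusted p = 5.8e-05). These Ctsh calls held under each scaling. Osteoclasts are other cells in which Ctsk is high, and their 6 markers summed to 1215, 704 and 703 in ASCs, 656 and 632 in FAPs and 221, 281 and 260.1 in injured FAPs. Ocstamp and Dcstamp were both at 0 in ASC libraries 1 and 3 and in FAP library 1. Nearly all of that sum in ASCs and FAPs came from Acp5, which stromal cells can also transcribe. Mmp9 went the other way, at 0 and 2.82 in FAPs and 88.7, 149 and 118 in injured FAPs, and of the 2 markers tested 1 was called higher and 1 lower after injury. The part of osteoclasts in the Ctsk differences was not tested.

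Of the cathepsins, Ctsf fell furthest after injury. This cathepsin, which takes part in degrading the invariant chain and other lysosomal proteins, was at 1853 and 1899 in FAPs, 322, 289 and 322 in injured FAPs and 2618, 1911 and 2227 in ASCs. FAPs and ASCs lay next to each other, and the injured libraries stood far below. The log2 fold change against FAPs was -2.59 (95% interval -2.89 to -2.29, limma adjusted p = 3.6e-07) and that against ASCs -2.84, both called under each scaling. Ctso, a less studied cysteine cathepsin, was at 2425, 1759 and 2169 in ASCs, 959 and 961 in FAPs and 528, 503 and 593 in injured FAPs, with no overlap between groups. It was lower in injured FAPs than FAPs (log2 fold change -0.83, 95% interval -1.14 to -0.52, limma adjusted p = 4.5e-04) and than ASCs (-1.96 on the log2 scale) under each scaling, and its higher level in ASCs than FAPs (1.13) was lost with a common total (0.56). Ctsz, a carboxypeptidase, was not called in any comparison, at 5562, 4909.9 and 5156 in ASCs, 4367 and 4400.1 in FAPs and 4479, 4146 and 4372 in injured FAPs.

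Ctsc and Ctss went the other way. Ctsc, which activates the serine proteases of leukocyte granules, was at 472, 455 and 434 in ASCs, 235 and 229 in FAPs and 784, 1005 and 692 in injured FAPs. The injured libraries were highest, FAPs lowest, and no groups overlapped. It was higher in injured FAPs than FAPs (log2 fold change 1.81, 95% interval 1.47 to 2.16, limma adjusted p = 4.8e-06) and than ASCs (log2 fold change 0.85, 95% interval 0.54 to 1.15, limma adjusted p = 3.2e-04), under each scaling. ASCs were higher than FAPs (0.97 on the log2 scale), a call lost with a common total (0.40). Ctss, an elastin-degrading cathepsin of antigen-presenting cells, was at 3.95, 1.13 and 2.51 in ASCs, which is 3, 1 and 2 reads, listed at 0 in each FAP library, and was at 63.6, 312 and 51.1 in injured FAPs. It was called higher in injured FAPs than in both other groups. The highest value of both genes was in injured FAP library 2, at 5.43 times the mean of the other two injured libraries for Ctss and 1.36 times for Ctsc. Without that library both remained called against FAPs and ASCs, with a log2 fold change of Ctsc of 1.66 and 0.70. Ctss, which passed the filter on low values only through the injured libraries, was then also called higher in ASCs than FAPs. That last call sets 3, 1 and 2 reads against listed zeros and carries no weight.

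Several markers of leukocytes, which the sort on CD45 should remove, were highest in the same injured library as Ctss. In injured FAP library 2 the leukocyte markers Ptprc and Laptm5 stood at 5.15 and 5.64 times the mean of the other two injured libraries, and the macrophage marker Lyz2 at 5.77 times. Not every marker followed Ctss across groups, though 10 of 11 tested leukocyte markers were called higher in injured FAPs than ASCs, with the filter limit given above. Srgn was at 644, 352 and 449 in ASCs and 110.6, 265 and 83.1 in injured FAPs. Csf1r was at 163, 186 and 112 in ASCs and 38.4, 164 and 25.9 in injured FAPs. The 15 macrophage and monocyte markers summed to 872, 798 and 717 in ASCs, 270.1 and 499.6 in FAPs and 934, 3678 and 823 in injured FAPs, against 26497 in the CD31+CD45+ library. Of the 13 tested, 7 were called higher and 1 lower in injured FAPs than ASCs (median log2 fold change 2.72), and 12 and 0 with a common total, which the sums do not show. Adgre1, Itgam, C1qb, C1qc, Ccr2 and Fcgr1 passed the filter on low values only through the injured libraries, so these counts and the median depend in part on that choice. The most abundant of them was Mpeg1 or Cd68 in ASCs, Cd68 in FAPs and Mpeg1 or Lyz2 in injured FAPs. In both FAP libraries 12 of the 15 were at 0, Adgre1, Csf1r and Lyz2 among them, while in the injured FAP libraries at most 1 was and in ASCs 1 to 5 were. The 9 neutrophil markers summed to at most 23.7 in any ASC library, 14.1 in FAPs and 23.5, 122 and 32.03 in injured FAPs, where Csf3r was the most abundant. Ngp was at 0 in all 3 injured libraries, and Ly6g in 2 of 3 ASC libraries, both FAP libraries and injured library 3. In the CD31+CD45+ library Ctss was at 797 and Ctsc at 1469, above every compared library. That library is not one of leukocytes alone, since its endothelial markers summed to 426910 and its smooth muscle and pericyte markers to 99526.5. The part of leukocytes in the Ctss and Ctsc differences was not tested.

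**Figure D4:**
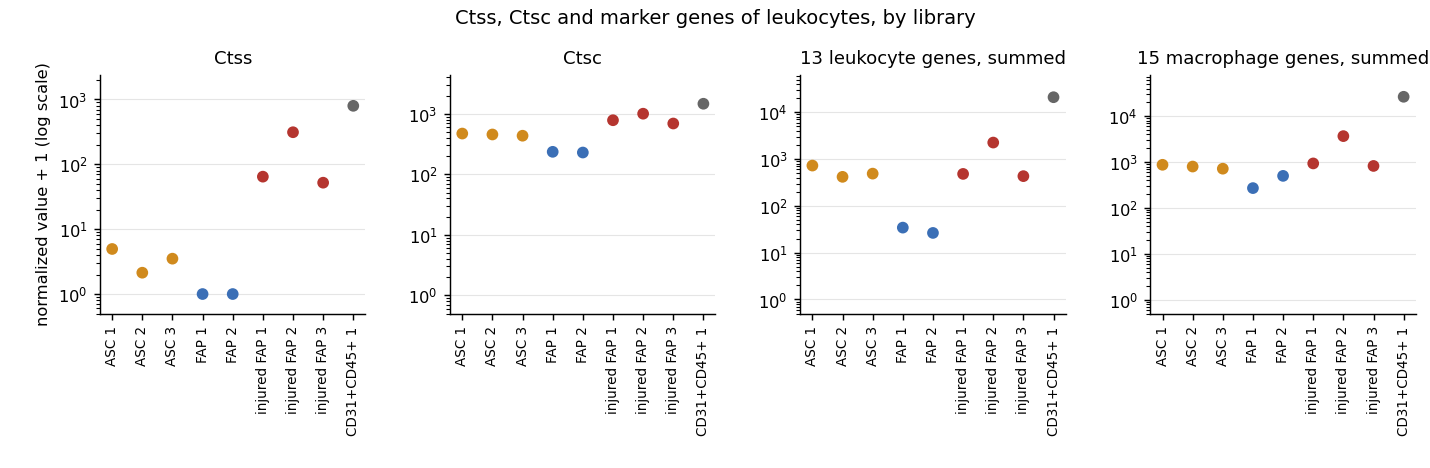
Normalized value + 1 on a log axis, 1 point per library, for Ctss, Ctsc and the summed levels of 13 leukocyte and 15 macrophage genes in ASCs, FAPs, injured FAPs and the CD31+CD45+ library. Injured FAP library 2 has the highest point of the 8 compared libraries in each panel, and Ctss is at 0 in both FAP libraries.

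The remaining cathepsins belong to other protease classes. Ctsd, the main aspartic protease of lysosomes, was at 12993, 9961 and 10825 in ASCs, 10146 and 9341 in FAPs and 8625, 8519 and 8001 in injured FAPs. ASCs and FAPs overlapped, the injured libraries lay a little lower, and no comparison was called. In injured FAPs against ASCs its log2 fold change of -0.42 turned to 0.13 with quantile normalization and 0.28 with a common total. That in ASCs against FAPs, 0.20, turned to -0.48 and -0.37 under the same scalings, and to -0.01 with a common 75th percentile. Of its exon bases, 670 are shared with Gm49369 on the same strand. Ctsa, a serine carboxypeptidase that also protects other lysosomal enzymes, was at 5952, 4237 and 4546 in ASCs, 3825 and 4005 in FAPs and 2625, 2461 and 2247 in injured FAPs. Injured FAPs lay below both other groups, which did not overlap either. The fall after injury (log2 fold change -0.68, limma adjusted p = 0.0017) and the difference from ASCs (-0.99) were lost with a common total (-0.55 and -0.30). Ctsa shares 495 exon bases with Pltp on the opposite strand.

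With the deposited values, all 3 lysosomal membrane proteins were highest in ASCs. Lamp1, a heavily glycosylated protein that lines the membrane, was at 26729, 20299 and 23668 in ASCs, 14385 and 13084 in FAPs and 10759, 10837 and 10883 in injured FAPs. Lamp2, whose splice forms serve autophagy, was at 18701, 17066 and 18606 in ASCs, 8628 and 7835 in FAPs and 8686, 8271 and 8528 in injured FAPs. ASCs lay above both muscle groups for both genes, and FAPs and injured FAPs overlapped for Lamp2. Both were called higher in ASCs than FAPs, Lamp1 at 0.77 (limma adjusted p = 4.4e-04) and Lamp2 at 1.14 (limma adjusted p = 6.2e-06) on the log2 scale. With quantile normalization these became 0.02 and 0.42, and with a common total 0.20 and 0.57, so neither call held, and with a common 75th percentile Lamp1 was at 0.56 and not called. In injured FAPs against ASCs both were lower, at -1.11 and -1.09, which became -0.41 and -0.52 with quantile normalization and -0.41 and -0.39 with a common total, and then were not called. Mcoln1, the calcium channel TRPML1, was at 1304, 1109 and 1043 in ASCs, 969 and 929 in FAPs and 737, 669.6 and 712 in injured FAPs. It was lower in injured FAPs than ASCs (log2 fold change -0.70, 95% interval -0.93 to -0.47, limma adjusted p = 1.8e-04), and at 0.00 with a common total. In ASCs against FAPs Mcoln1 was not called, and its log2 fold change of 0.27 turned to -0.29 with a common total.

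The MiT/TFE factors differed from one another in their pattern. Tfeb was at 350.4, 553 and 545 in ASCs, 978 and 1000.1 in FAPs and 384, 396 and 373 in injured FAPs. Both FAP libraries lay above all others, and ASCs and injured FAPs overlapped. Tfeb was lower in ASCs than FAPs (log2 fold change -1.06, 95% interval -1.47 to -0.66, limma adjusted p = 6.3e-04) and lower in injured FAPs than FAPs (log2 fold change -1.36, 95% interval -1.77 to -0.95, limma adjusted p = 1.0e-04), each under all 4 scalings. Between injured FAPs and ASCs it was not called (log2 fold change -0.30, 95% interval -0.66 to 0.07, limma adjusted p = 0.13), and a common total turned its log2 fold change to 0.40, also not called. Mitf was at 1079, 1587 and 1263 in ASCs, 542 and 471 in FAPs and 315, 327 and 323 in injured FAPs. ASCs were highest and injured FAPs lowest, with no overlap. It was higher in ASCs than FAPs (log2 fold change 1.35, 95% interval 1.01 to 1.70, limma adjusted p = 4.3e-05) and lower in injured FAPs than ASCs (log2 fold change -2.00, 95% interval -2.31 to -1.69, limma adjusted p = 8.1e-07) under each scaling. Its fall after injury (log2 fold change -0.65, limma adjusted p = 0.0041) was at -0.55 without FAP library 1 and -0.52 with a common total, and then not called. Tfe3 was at 2975, 2706 and 2581 in ASCs, 2299 and 2241 in FAPs and 2123, 2195 and 1916 in injured FAPs, groups that were close and did not overlap. No Tfe3 comparison was called, with log2 fold changes of 0.28, -0.13 and -0.41 for ASCs against FAPs, for the injury and for injured FAPs against ASCs, which a common total turned to -0.29, 0.00 and 0.29. Per 1000 exon bases Tfe3 had the highest level of the 3 factors in every group, at 761 in ASCs, 627 in FAPs and 574 in injured FAPs, beside 120.2, 246 and 95.7 for Tfeb. These are RNA levels, and the activity of the factors was not measured.

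**Figure D5:**
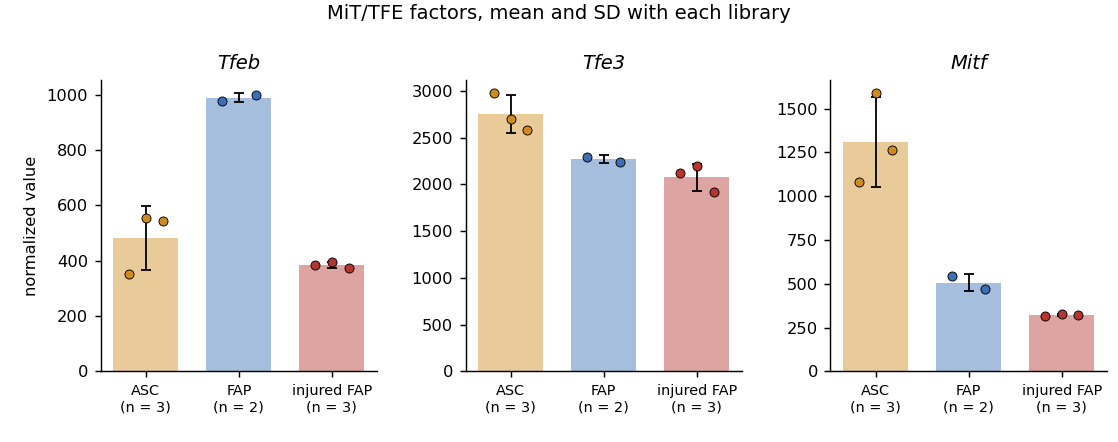
Normalized values of Tfeb, Tfe3 and Mitf, with bars for the mean, error bars for the SD and 1 point per library in ASCs (n = 3), FAPs (n = 2) and injured FAPs (n = 3). Tfeb is highest in FAPs, Mitf in ASCs, and the Tfe3 groups lie close together, with a direction that turns with a common total.

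Other genes of the pathway, counted as whole lists, were set beside these. The lists were chosen with earlier results of these data known. The genes named from them, apart from Tcirg1, are called genes with the largest log2 fold changes. Their counts are to be read against all genes tested, of which 23.4% and 23.8% were called higher and lower in ASCs against FAPs, 24.9% and 27.7% after injury and 25.0% and 25.8% between injured FAPs and ASCs. Of the list of assembly factors with Tcirg1, the a3 subunit, 9 of 10 genes were tested. In ASCs against FAPs 1 was called higher and 0 lower, after injury 2 and 0, and between injured FAPs and ASCs 1 and 2, with medians of 0.20, 0.02 and -0.24, which a common total turned to -0.36 in the first and 0.45 in the last, and quantile normalization to -0.09 in the second. The counts became 0 and 3, 2 and 0, and 4 and 0 with a common total, which turned the balance of the first and last, and the 22.2% higher after injury are near the 24.9% of all genes tested. Tcirg1 was at 1734, 2445 and 1962 in ASCs, 1457 and 1520.3 in FAPs and 2016, 1848 and 1946 in injured FAPs. FAPs were lowest, no comparison was called with the deposited values, and its log2 fold changes in the same 3 comparisons were 0.44, 0.38 and -0.07, the last on the other side of 0 under each other scaling and called higher with a common total (0.63), and the first at -0.12 with a common total. Wdr7, which works with the pump as part of the RAVE-like complex, was higher in ASCs than FAPs (0.75) and lower in injured FAPs than ASCs (-0.73), calls that a common total ended at 0.18 and -0.03, and the first also with a common 75th percentile at 0.54. Its partner Dmxl2 was lower in injured FAPs than ASCs (-0.77, and -0.07 with a common total). Vma21, an assembly factor of the endoplasmic reticulum, was at 630.4 and 669 in FAPs and 979, 969 and 1041 in injured FAPs. The groups did not overlap, the log2 fold change of 0.62 was just over the threshold, and it fell under it with quantile normalization (0.54), a common 75th percentile (0.52) and without FAP library 1 (0.57).

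Of 40 other lysosomal hydrolases tested, 16 were higher and 3 lower in ASCs than FAPs, 2 higher and 16 lower in injured FAPs than FAPs, and 2 higher and 26 lower in injured FAPs than ASCs. The 40.0% higher in ASCs, the 40.0% lower after injury and the 65.0% lower than in ASCs stand beside 23.4%, 27.7% and 25.8% of all genes tested. Their medians were 0.55, -0.46 and -0.99, and -0.02, -0.33 and -0.29 with a common total, which thus turned the first. The counts with a common total were 3 and 8, 2 and 14, and 7 and 15, so in ASCs against FAPs the lower calls then outnumbered the higher ones. Lgmn, the protease that processes several cathepsins to their mature form, was at 3484, 4255 and 3884 in ASCs, 965 and 836 in FAPs and 2631, 3136 and 2314 in injured FAPs. ASCs stood apart from FAPs (log2 fold change 2.10, 95% interval 1.79 to 2.42, limma adjusted p = 1.2e-06). Gla, the alpha-galactosidase, was higher in ASCs than FAPs as well (2.41). After injury Acp5, an acid phosphatase, fell from 634 and 580.5 to 125, 119 and 134 (log2 fold change -2.26, 95% interval -2.76 to -1.77, limma adjusted p = 1.2e-05), and Hyal1, a hyaluronidase, fell by 1.89 on the log2 scale. Between injured FAPs and ASCs the largest differences in the list were those of Acp5 (-2.70) and Man2b1, a mannosidase (-2.37).

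Among 27 genes for other membrane proteins, activators and sorting, the counts were 7 higher and 4 lower in ASCs against FAPs, 3 and 9 after injury and 2 and 11 between injured FAPs and ASCs. As shares, 25.9% higher in ASCs is near the 23.4% of all genes tested, and 33.3% lower after injury near their 27.7%. Their medians of 0.09, -0.21 and -0.33 depended on the scaling, with -0.09 in the first under quantile normalization and -0.48 and 0.37 in the first and last under a common total, where the counts were 3 and 12 and 8 and 5. Npc2, a cholesterol carrier, and Tpcn2, a cation channel, were higher in ASCs than FAPs at 1.69 and 1.75 on the log2 scale. Sort1, a sorting receptor, and Gm2a, a lipid activator, were lower after injury at -1.91 and -1.88. Psap, the precursor of the saposins and a cargo that sortilin carries, was at 73241, 52287 and 69467 in ASCs, 35036 and 36039 in FAPs and 14838, 13752 and 13578 in injured FAPs. The 3 groups were apart, and the injured libraries were lower than ASCs (log2 fold change -2.19, 95% interval -2.50 to -1.89, limma adjusted p = 3.8e-07). Tpcn2 was also lower there (-1.65), with one ASC library, number 1, at 2067 and the other two at 791 and 1036.

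Natural inhibitors of cathepsins and of other proteases had calls in both directions in each comparison. Of 17 listed genes 9 were tested, with 6 higher and 2 lower in ASCs against FAPs, 3 and 2 after injury and 2 and 6 between injured FAPs and ASCs, at medians of 1.12, -0.19 and -1.09. After injury the 33.3% higher and 22.2% lower are near the 24.9% and 27.7% of all genes tested. The common total changed the counts to 4 and 2, 3 and 2, and 2 and 3 and the medians to 0.56, -0.06 and -0.40, and quantile normalization gave 2 and 4 and a median of -0.57 in the last. Cst3 (cystatin C), a secreted inhibitor of cysteine cathepsins, was at 23859 and 27222 in FAPs, 5741, 4624 and 6107 in injured FAPs and 13951, 10396 and 10869 in ASCs. FAPs were highest and injured FAPs lowest, and the fall after injury was called (log2 fold change -2.22, 95% interval -2.58 to -1.87, limma adjusted p = 1.7e-06). Cstb (cystatin B), its cytoplasmic relative, was at 4637, 2439.6 and 2754 in ASCs and 787 and 674 in FAPs, with ASCs higher (log2 fold change 2.11, 95% interval 1.62 to 2.60, limma adjusted p = 2.3e-05). Serpinb1a, an inhibitor of serine proteases that include cathepsin G, rose after injury from 422 and 460.0 to 1410.0, 1639.9 and 1800.0 (log2 fold change 1.87, limma adjusted p = 3.8e-06). Ctla2a, which resembles a cathepsin propeptide, was higher in ASCs than FAPs (2.89) and lower in injured FAPs than ASCs (-3.08), but its FAP libraries were unlike at 103 and 10.3, and the first value was 4.48 without FAP library 1 and 1.29 without FAP library 2. Serping1, the complement C1 inhibitor, was lower in injured FAPs than ASCs by a log2 fold change of -2.94.

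Of 26 tested genes for MiT/TFE regulation and autophagy, 8 were higher and 1 lower in ASCs against FAPs, 0 higher and 6 lower after injury and 1 higher and 14 lower in injured FAPs than ASCs. The 30.8% higher in ASCs compare with 23.4% of all genes tested, the 23.1% lower after injury with 27.7% and the 53.8% lower than in ASCs with 25.8%. Their medians were 0.36, 0.03 and -0.61. With a common total the counts became 4 and 4, 4 and 6, and 9 and 5, and the medians -0.21, 0.16 and 0.09, and quantile normalization turned the median after injury to -0.07. Flcn and its partners Fnip1 and Fnip2 act on the Rag GTPases that hold Tfeb and Tfe3 outside the nucleus. Fnip1 was at 3628, 2496 and 3067 in ASCs, 619 and 687 in FAPs and 695, 653 and 772 in injured FAPs, with ASCs apart from both (log2 fold change 2.21, 95% interval 1.88 to 2.55, limma adjusted p = 1.4e-06 against FAPs). Fnip2 was higher in ASCs than FAPs too (1.86), with ASC library 1 at 2985 and the other two at 913 and 1036, and was at 1.33 and still called without library 1. Flcn was at 2845, 1672 and 1840.4 in ASCs, 659.9 and 708 in FAPs and 448, 387 and 388 in injured FAPs, and lower in the last than in ASCs (log2 fold change -2.34, 95% interval -2.73 to -1.95, limma adjusted p = 1.4e-06). Gpnmb, a membrane glycoprotein known as a target of MiT/TFE factors, was at 15732, 7669 and 10087 in ASCs, 5204 and 5762 in FAPs and 1236, 1065 and 964 in injured FAPs. It fell after injury (log2 fold change -2.34, 95% interval -2.87 to -1.80, limma adjusted p = 1.6e-05) and was lower in injured FAPs than ASCs by a log2 fold change of -3.30. Map1lc3b, an autophagosome protein, fell by 0.96 on the log2 scale after injury.

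Markers of other cell types also differed between the groups. Endothelial cells are ones the sort on CD31 should remove, and their 14 markers summed to 10883, 9234 and 10499 in ASCs, with Tek the most abundant, 18523 and 16669 in FAPs and 11688, 11996 and 9878 in injured FAPs, with Eng the most abundant, and Emcn, Cldn5 and Vwf were at 0 in both FAP libraries and Pecam1 (CD31) in FAP library 2. Of the 13 tested, 9 were called higher and 1 lower in injured FAPs than ASCs with the deposited values, which the sums do not show, though Emcn passed the filter on low values only through the injured libraries. The 10 smooth muscle and pericyte markers, all above 0 in each library, summed to 5590, 3542 and 4324 in ASCs (mostly Abcc9), 26106 and 22758 in FAPs (Rgs5 or Acta2 the most abundant) and 10899, 10528 and 11074 in injured FAPs (Cspg4 the most abundant). For muscle fibres the 12 markers summed to 216, 159 and 223 in ASCs, 924 and 1047 in FAPs and 324, 325 and 256 in injured FAPs, with Acta1 or Tnnt3 the most abundant, and Myh2 at 0 in ASC libraries 1 and 3. The 10 satellite cell markers summed to 3446, 3336 and 3593, then 3031 and 3108, then 5528, 5275 and 5132, with Vcam1 the most abundant in each library and Pax7 at 0 in the 3 ASC libraries but not in FAPs or injured FAPs. These sums follow Vcam1 and not the list, since of the 7 tested 6 were called lower and 1 higher in ASCs than FAPs (median log2 fold change -2.12) and 4 lower and 1 higher after injury (median -0.96). Pax7 passed the filter on low values only through the FAP libraries. The 8 adipocyte markers summed to 1334, 1082 and 1888, then 129 and 144, then 40.8, 51.9 and 12.2, with Car3 the most abundant and Lep and Retn at 0 in FAP library 2 and the 3 injured libraries. Their part in the differences of the V-ATPase and cathepsin genes was not tested.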

How the data were processed

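Total RNA of 9 libraries was sequenced on a BGI DNBSeq instrument, and the deposited table gives a normalized signal per gene. By the study's methods the authors used fastq_illumina_filter 0.1 and FastQC 0.11.9 for read quality, HISAT2 2.2.1 for alignment (mm10), featureCounts of Subread 2.0.1 with UCSC transcripts for the counts and DESeq2 1.34.0 for the differences. The strand setting and the treatment of reads with several matches are not given. Every value in each library was a whole number of reads times 1 factor per library, with 100% of values whole within 0.01 reads. Reads on genes were 27481573, 27349184 and 27402102 in ASCs, 24052508 and 24164447 in FAPs, 26968235, 26698572 and 27028114 in injured FAPs and 13091077 in the CD31+CD45+ library.

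Groups were compared with limma 3.58.1 (R 4.3.3) on log2(value + 1) with a trend and a mean per group, fitted once on 8 libraries. The 13601 genes tested had mean values of 10 or more, and p was adjusted over them by Benjamini-Hochberg. For a call, log2 fold change had to pass 0.58 and adjusted p had to be under 0.05. Adding 1 before the log understates folds of low genes. Intervals are 95%, and they cover the spread between libraries.

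Folds are given for called genes of the set with a mean of at least 100 over the 8 libraries, for Tfeb, Tfe3, Mitf and Tcirg1 in any case, and for the 2 called genes of each pathway list with the largest log2 fold change in a comparison and that mean. A few further values are given for genes chosen after their values were seen: Atp6v1h, Atp6v1g1, Atp6v0a2, Atp6v1a, Mcoln1 and Ctsd under other scalings. The genes, lists and markers were chosen with earlier results of these data known.

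Alternatives were pseudocounts of 0.5 and 8, no filter on low values and a mean of at least 50, quantile normalization, a common 75th percentile, a common total (chosen after seeing the data), only the compared groups, a replicate block, leaving out each library, edgeR 4.0.16 and DESeq2 1.42.0 on the recovered reads. Near-identical transcripts were searched with blastn 2.17.0 (at least 95% identity over 50% of the copy) in GENCODE M21. Each pipeline was tested on simulated data, with 200 of the 13601 genes changed 4-fold in ASCs and, separately, 200 in injured FAPs. The simulation did not model as many differing genes, or the unlike totals of normalized values, as these data hold. It therefore does not bear on the scaling. Scripts ran in Python 3.11.15.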

Additional observations from a re-analysis of the deposited data

Results flagged for a closer look

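The CD31+CD45+ library of glycerol-injected muscle entered no comparison, and 9 of the 50 V-ATPase, cathepsin and related genes were higher there than in every one of the 8 compared libraries. Ctss was at 797 against at most 312, Ctsc at 1469 against at most 1005, Ctse at 43.9 against at most 1.55 and Ctsw at 26.7 against at most 5.49. Atp6v1g2 was at 137 against at most 70.4 and Tfeb at 1221 against at most 1000.1. Atp6v0a2, at 1791 against at most 1689.7, and Atp6v1g1, at 871 against at most 818, were higher by under 10%, and Atp6v1c2 rested on 1 read. The library has no replicate, so none of these differences was tested, and it held 13091077 reads on genes where the others held at least 24052508.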

How the results depend on the processing

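Across 88 results for single named genes, 52 kept their direction and their side of the threshold under each of the 19 other settings. With pseudocounts of 0.5 and 8, no filter on low values, only the compared groups, the replicate block and DESeq2, the counts of genes called higher and lower stayed within 1.5 times those reported. The replicate block gave 20 and 3, 3 and 11, and 3 and 24 for ASCs against FAPs, for the injury and for injured FAPs against ASCs. Replicate numbers did not pair libraries across groups, since the correlation of deviations between libraries of the same number ran from -0.05 to 0.04.

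With a mean of at least 50, genes lower in ASCs than FAPs were 1, since fewer genes were tested. With quantile normalization, genes higher in ASCs than FAPs were 12. With a common total, chosen after seeing the data, genes higher in ASCs than FAPs were 7 and lower 5, and in injured FAPs against ASCs 5 were higher and 11 lower. For both scalings the cause was not tested. Without 1 library at a time, higher and lower counts ran from 18 to 20 and 3 to 3 in ASCs against FAPs, 3 to 4 and 9 to 12 in injured FAPs against FAPs and 3 to 3 and 21 to 24 in injured FAPs against ASCs. All genes called ran from 5653 to 6683, 6323 to 7358 and 6582 to 7190 in the same order. Where a group was left with 1 library, that library is assumed to vary like the other groups.

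Among the 88 results, those whose log2 fold change changed direction were not called with the deposited values, except Atp6ap1 in injured FAPs against ASCs. Other comparisons that were not called turned too, such as those of Ctsd, Ctsz and Atp6v0e. In injured FAPs against ASCs, Tcirg1 was at 0.11 with quantile normalization, 0.049 with a common 75th percentile, 0.0080 with edgeR and 0.63 with a common total, where it was called higher, and it ranged from -0.178 to 0.0698 without 1 library at a time (the highest without ASC library 2). With a common total Atp6ap1 was at 0.0395, Tfe3 at 0.29 and Tfeb at 0.40. In ASCs against FAPs, Tfe3 was at -0.0808 with quantile normalization and -0.29 with a common total, and Tcirg1 at -0.12 with a common total. In injured FAPs against FAPs, Tfe3 was at 0.0013 with a common total. The cause was not tested. Among the 88 results, lost calls number 12 with quantile normalization, 5 with a common 75th percentile and 28 with a common total. The 1 call gained among them, with a common total, was that of Tcirg1. Calls gained outside these results, such as those of Atp6v1h, Atp6v1g1, Atp6v0a2 and Atp6v1g2 with a common total, are given above.

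Depth limits genes of a few reads, such as Atp6v0d2 and Atp6v1b1, and with 2 FAP libraries their spread is estimated with that of the other groups.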
